A study of Homo sapiens with 6 samples.

Results

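In the triple-negative breast cancer line MDA-MB-231, RNA sequencing after knockdown of PUS1 was examined for 7 genes, which serve the uptake and synthesis of organic osmolytes or lie beside such a gene. They were SLC6A12, SLC5A3, SLC6A6, SLC38A2, AKR1B1, NFAT5 and MRPS6, of 60605 genes in the table, and all 7 were among the 14748 genes with enough counts to test. The first 5 were chosen by their role in osmolyte supply and NFAT5 as their known activator, with the values of this knockdown already known. MRPS6 was added because it overlaps SLC5A3. The values of the 7 genes between the groups are therefore a description. Which of them the fit across all genes called is stated, with no p-value, and nothing is read from those calls.

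The cells carried either a control shRNA (shControl, 3 libraries) or an shRNA against PUS1 (shPUS1, 3 libraries), a pseudouridine synthase, and the labels name the libraries of each group as biological replicates 1, 2 and 3. Per the methods, shRNAs were delivered with a lentiviral pLKO.1 vector and cells were selected with puromycin. The methods do not state which PUS1 hairpin the sequenced cells carried or whether the replicates came from separate infections. In the deposited headers of the shPUS1 libraries a 2 follows the word knockdown, and whether it names a hairpin is not stated. The labels give 1 knockdown group, so effects of a hairpin on other genes cannot be told apart from those of the loss of PUS1. Poly(A) RNA of whole cultures was measured, so a rise in every cell and a rise in part of the cells cannot be told apart. Totals lay between 14241505 and 19625998 estimated counts per library. PUS1 was lower in shPUS1, at 5.80 ± 0.663 CPM (counts scaled to a common library size with TMM factors, SD, n = 3) against 18.0 ± 8.27 (SD, n = 3) in shControl, which is -1.64 on the log2 scale with a standard error of 0.32 and an adjusted p of 0.0462 in edgeR's quasi-likelihood test. All shPUS1 libraries were below all controls, and without shControl replicate 1 or without any of the shPUS1 libraries the adjusted p was 0.0905 to 0.253. The shControl replicate 2 library stood apart, with Pearson's r of log2 CPM across genes of 0.9505 and 0.9521 with the other shControl libraries, which had 0.981 between them. The mesenchymal markers of the line, VIM, CD44, AXL and CAV1, had 5372 to 50564 counts per library, and CDH1, ESR1, PGR and GRHL2, which the line lacks or holds low, had 0 to 20.

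Cells in hypertonic surroundings lose water and restore their volume by gathering small organic osmolytes, which, unlike salts, leave proteins undisturbed. The transcription factor NFAT5, also called TonEBP, binds the tonicity-responsive enhancer (TonE) and activates the genes that bring these osmolytes in or make them. SLC6A12 takes up betaine, SLC5A3 takes up myo-inositol, SLC6A6 takes up taurine and SLC38A2 takes up neutral amino acids, while AKR1B1, aldose reductase, makes sorbitol from glucose. SLC38A2 is also known to rise when amino acids run short. MRPS6 encodes a protein of the small subunit of the mitochondrial ribosome and has no known part in osmolyte supply.

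The pair SLC5A3 (ENSG00000198743) and MRPS6 (ENSG00000243927) lies on the plus strand of chromosome 21 in GRCh38, at 34073578 to 34106260 and 34073224 to 34143034 in the deposited table. RefSeq windows from 250 bases before to 50 bases after a gene's start were found for 4 of the 7 genes, SLC5A3, MRPS6, AKR1B1 and SLC38A2, and the first 2 had the same window. The stretch of that window before the first exon of MRPS6-201, 195 bases at chr21:34073328-34073522 on the plus strand, is shown because it precedes the first exons of SLC5A3-201 and MRPS6-201. It lies inside the listed range of MRPS6, in the first intron of MRPS6-205. Capitals mark the 9 matches to the GC box (GGGCGG or CCGCCC, which bind proteins of the SP family, with 1 base shared by some neighboring matches), and 88.2% of its bases are G or C.
Upstream of SLC5A3-201 and MRPS6-201: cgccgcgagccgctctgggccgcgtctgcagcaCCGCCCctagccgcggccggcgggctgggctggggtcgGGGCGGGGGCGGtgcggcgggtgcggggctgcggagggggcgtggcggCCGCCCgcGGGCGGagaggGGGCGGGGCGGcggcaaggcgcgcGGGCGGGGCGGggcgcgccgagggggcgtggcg
A GC box was present in 45.0% of all 35116 windows. The first exons of the 2 transcripts start at different bases and end at the same base, and the second exons differ, as the next lines show for the ends of exon 1 (capitals) and the starts of exon 2 (lower case). The SLC5A3-201 stretch spans chr21:34073731-34094877 and that of MRPS6-201 chr21:34073731-34125355, both on the plus strand.
SLC5A3-201: AAAGCCATGCAGCGGggttggtacagtagg
MRPS6-201: AAAGCCATGCAGCGGccagagactgctgct
The core of the TonE motif (TGGAAA or TTTCCA) was matched in 20.7% of all windows. It was absent from the shared window of SLC5A3 and MRPS6 and from both windows of AKR1B1, and the window of SLC38A2 held 1 match, 33 bases after the gene's start. The match is printed in capitals on the strand of the gene (chr12:46372726-46372753, minus strand).
SLC38A2: ccttagaacgccTTTCCAgtactgctag
These matches are a description of the letters in windows near the starts, and known TonE elements of such genes can lie farther away.

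Betaine, myo-inositol and neutral amino acid transporters and aldose reductase were all higher in every shPUS1 library than in any shControl library, while the taurine transporter and NFAT5 overlapped between the groups. Of the 7 genes, 5 were past the threshold of the fit across all genes, an adjusted p under 0.05 together with a change of 1 or more on the log2 scale, all of them higher. Among all genes tested, 0.888% were past it and higher and 1.37% in either direction. Every shPUS1 library was above every shControl library for the same number of members, against 18.8% of all genes tested. The members were chosen on this contrast, so nothing is read from these counts.

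**Figure D1:**
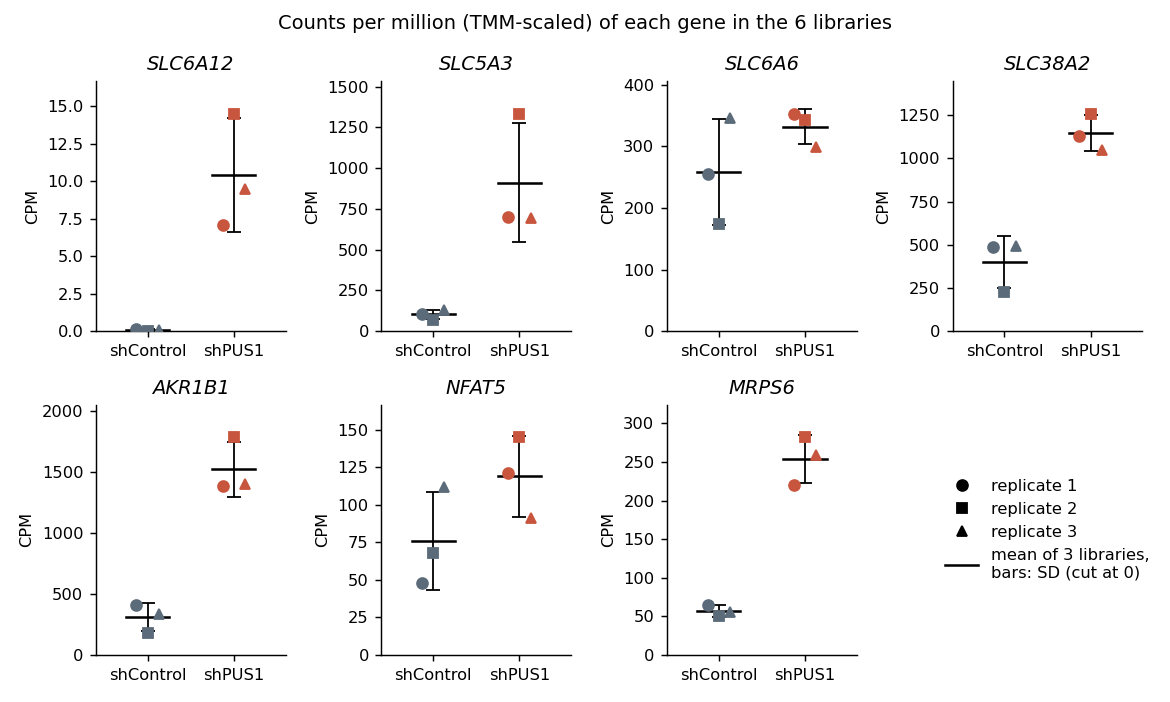
TMM-scaled CPM (linear axes from 0) of the 7 genes in each shControl (grey) and shPUS1 (red) library, with the replicate number as the symbol, the mean as a line and the SD as bars cut at 0. The groups are apart for SLC6A12, SLC5A3, SLC38A2, AKR1B1 and MRPS6 and overlap for SLC6A6 and NFAT5.

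SLC6A12 (ENSG00000111181, chromosome 12, 190077 to 214570, minus strand) was close to absent in control cells. It had 2, 0 and 1 counts in shControl replicates 1, 2 and 3. In shPUS1 replicates 1, 2 and 3 it had 127, 265 and 161 counts, or 7.07, 14.5 and 9.50 CPM. Over all libraries these are 553 counts against 3, a ratio of 169.9 after scaling with a 95% exact interval of 57.8 to 827 that covers counting error only. The ratio was 351 without shControl replicate 1, which leaves 1 control count, and 104 without shControl replicate 2, and 135 to 198 without any other library. The betaine transporter nevertheless stayed the lowest of the 7 genes per length, at 1.93 ± 0.719 FPKM (the authors' fragments per kilobase of exon, scaled to the library, SD, n = 3) in shPUS1. The antisense gene SLC6A12-AS1, on the other strand of the same locus, had 1 count in shPUS1 replicate 1 and 0 in the other libraries.

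SLC5A3, the myo-inositol transporter, was the next in size. It had 107, 71.6 and 131 CPM in shControl replicates 1, 2 and 3. It had 702, 1334 and 695 CPM in the shPUS1 libraries in the same order. The lowest shPUS1 value was 5.31 times the highest shControl value, and replicate 2 was well above the other shPUS1 libraries. The group means were 911 ± 367 and 103 ± 29.9 CPM (SD, n = 3 each), with a log2 fold change of 3.14 and a standard error of 0.33, and the rise ranked 23 among the genes tested.

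For AKR1B1 (ENSG00000085662, chromosome 7, 134442356 to 134459284, minus strand), the sorbitol-making enzyme, the shControl libraries had 412, 183 and 335 CPM. The shPUS1 libraries had 1386, 1783 and 1399 CPM. The groups did not overlap, and the shControl value of replicate 2 was less than that of either other control. The log2 fold change was 2.30 with a standard error of 0.29, between an shPUS1 mean of 1523 ± 226 and an shControl mean of 309.9 ± 117 CPM (SD, n = 3 each). Its close relatives AKR1B10 and AKR1B15 and 8 listed AKR1B1 pseudogenes together had 0 to 3 counts in the shControl libraries and 11 to 26 in the shPUS1 libraries. None of the 100-base stretches of AKR1B1 transcripts occurred in another gene's transcripts.

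SLC38A2 (ENSG00000134294, chromosome 12, 46358188 to 46372773, minus strand), which carries neutral amino acids into the cell with sodium, had 486, 228 and 491 CPM in the shControl libraries. It had 1133, 1259.5 and 1049 CPM in the shPUS1 libraries. The shPUS1 values lay close together, and shControl replicate 2 was again the lowest. The log2 fold change was 1.52 with a standard error of 0.28, and the lowest shPUS1 value was 2.14 times the highest shControl value.

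SLC6A6 (ENSG00000131389, chromosome 3, 14402576 to 14489349, plus strand), the taurine transporter, had 255, 174 and 346 CPM in shControl. It had 353, 343 and 299 CPM in shPUS1. Control replicate 3 lay above 2 of the 3 shPUS1 libraries, and the groups overlapped. The log2 fold change was 0.36 with a standard error of 0.23, not past the threshold. Of the osmolyte transporters among the members it was therefore the one with the smallest difference, and the difference of its means, 332 ± 28.6 against 258 ± 86.2 CPM (SD, n = 3 each), was smaller than the SD of the controls.

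NFAT5 (ENSG00000102908, chromosome 16, 69565094 to 69704666, plus strand), the transcription factor, had 48.2, 67.6 and 112 CPM in shControl. It had 121, 145 and 91.0 CPM in shPUS1. Control replicate 3 lay above shPUS1 replicate 3, so the groups overlapped, and the log2 fold change was 0.65 with a standard error of 0.31, not past the threshold. NFAT5 is known to be controlled also through its protein, its phosphorylation and its entry into the nucleus, none of which these libraries measured. A gene on the same strand with no symbol in the table (ENSG00000260772) lies over the last part of NFAT5 and shares 8.80% of the 100-base stretches of NFAT5 transcripts. It had 16.2, 7.86 and 4.02 CPM in shControl replicates 1, 2 and 3, the reverse of the order of NFAT5 there. In shPUS1 it had 7.85, 9.41 and 13.6 CPM, all within the range of the controls. How reads shared by the 2 genes were divided is not given. Its log2 fold change was 0.14 with a standard error of 0.46. With both genes summed, the values were 64.3, 75.4 and 116 CPM in shControl and 128, 155 and 105 in shPUS1, with the overlap kept and a log2 ratio of the means of 0.60.

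MRPS6, the mitochondrial ribosomal protein, had 64.9, 50.4 and 55.6 CPM in shControl. It had 220.2, 282 and 259 CPM in shPUS1. Both groups were tight, with the highest library 1.29 times the lowest in shControl and 1.28 times in shPUS1, and they did not overlap. The log2 fold change was 2.16, with the smallest standard error of the 7 genes, 0.15.

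Part of the exons of SLC5A3 and MRPS6 is common to both. SLC5A3 has 1 transcript in GENCODE release 29, with a first exon of 176 bases that lies inside the first exon of MRPS6-201, and a second exon of 11400 bases that lies in an intron of MRPS6-201. The genes share 273 exonic bases, 176 in the first exon and 97 in short exons of MRPS6-202 and MRPS6-205, which are 2.36% of the exonic bases of SLC5A3 and 6.35% of those of MRPS6. Reads there can come from either gene. With 2.36% of the SLC5A3 counts taken from MRPS6 in each library, an alternative chosen after seeing the data, the log2 fold change of MRPS6 was 2.09 with a standard error of 0.15. With the counts of both genes summed it was 2.86 with a standard error of 0.27.

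**Figure D2:**
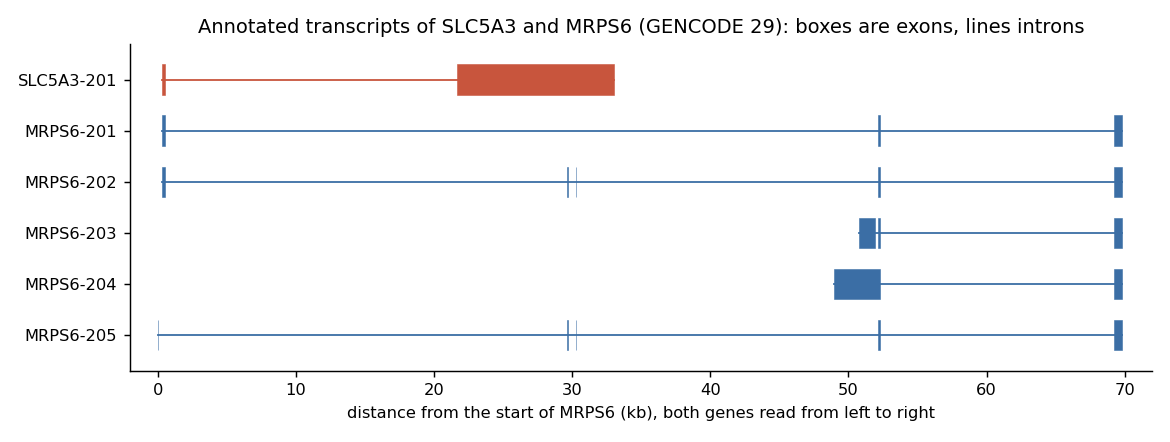
Exons (boxes) and introns (lines) of the GENCODE 29 transcripts of SLC5A3 (red) and MRPS6 (blue), against the distance in kb from the start of MRPS6. The long second exon of SLC5A3 begins 21.639 kb from that start, inside an intron of MRPS6-201, whose second exon begins at 52.117 kb.

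Per length, the pair shifted in its balance. The ratio of SLC5A3 to MRPS6 in FPKM was 0.612, 0.525 and 0.870 in shControl replicates 1, 2 and 3. It was 1.18, 1.75 and 0.990 in the shPUS1 libraries. MRPS6 thus had the higher FPKM of the pair in every control. The ratios of the groups did not overlap, although shPUS1 replicate 3 was close to shControl replicate 3. The shPUS1 mean was 1.31 ± 0.396 (SD, n = 3) and the shControl mean 0.669 ± 0.179 (SD, n = 3). FPKM divides by the listed exonic length, 4273 bases for MRPS6. In GENCODE 29, 3307 bases lie in a single exon of MRPS6-204. Which transcripts were expressed was not measured. Whether a ratio lies above or below 1 depends on the length used. The separation of the groups does not, as long as the same length holds in both groups, which was not measured.

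**Figure D3:**
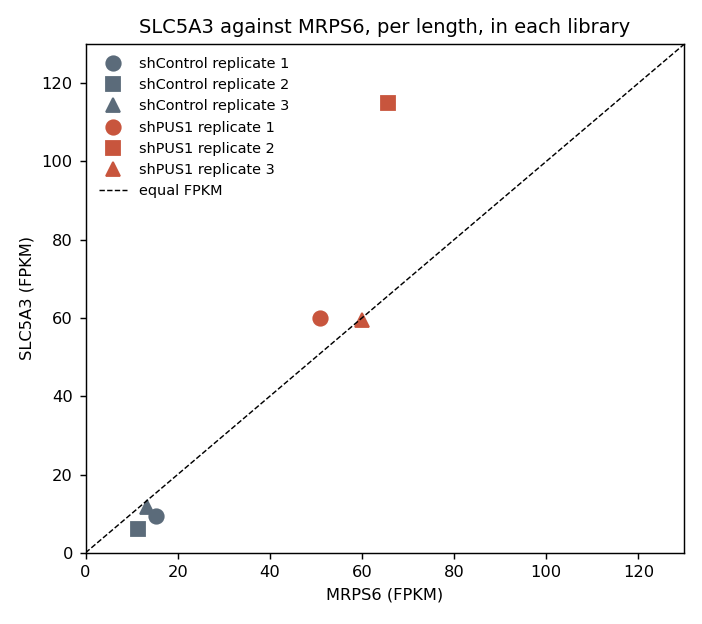
FPKM of SLC5A3 against MRPS6 in each library, with the dashed line at equal FPKM, whose place depends on the listed exonic lengths. The shControl libraries (grey) lie at 11.4 to 15.4 FPKM of MRPS6 and 6.01 to 11.7 of SLC5A3, and the shPUS1 libraries (red) at 50.8 to 65.7 and 59.5 to 115.

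The order of the levels per length was led by AKR1B1 in both groups. In shControl AKR1B1 was at 86.0 ± 33.9 FPKM and SLC38A2 at 62.6 ± 24.7, followed by SLC6A6 at 31.7 ± 11.4, MRPS6 at 13.4 ± 2.0, SLC5A3 at 9.04 ± 2.85 and NFAT5 at 4.69 ± 2.12 (SD, n = 3 each). SLC6A12 had 0.03, 0 and 0.01 FPKM there. The libraries of AKR1B1 and SLC38A2 overlapped, as did those of SLC38A2 and SLC6A6, of MRPS6 and SLC5A3, and of SLC5A3 and NFAT5. In shPUS1 the order was AKR1B1 at 413 ± 63.5, SLC38A2 at 175 ± 16.9, SLC5A3 at 78.1 ± 31.9, MRPS6 at 58.9 ± 7.53, SLC6A6 at 39.8 ± 3.41 and NFAT5 at 7.19 ± 1.67 FPKM (SD, n = 3 each), ahead of SLC6A12. In that group only SLC5A3 and MRPS6 overlapped among neighbors in the order. SLC6A6 thus ranked above MRPS6 and SLC5A3 in FPKM in shControl and below them in shPUS1. Like the ratio of SLC5A3 to MRPS6, the ranks between genes depend on the listed exonic lengths. The 4 transporters and AKR1B1 together took 0.128%, 0.0638% and 0.134% of the counts in shControl replicates 1, 2 and 3 and 0.353%, 0.472% and 0.342% in the shPUS1 libraries.

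Replicate 2 was the highest shPUS1 library in 6 of the 7 genes, all but SLC6A6, as in 35.3% of all genes tested. Replicate 2 was the lowest shControl library in 6 of the 7, all but NFAT5, as in 40.4% of all genes tested. Within shPUS1 the highest library was 2.05 times the lowest for SLC6A12 and 1.92 times for SLC5A3, and 1.18 to 1.6 times for the other 5. Leaving out shPUS1 replicate 2 gave SLC5A3 a log2 fold change of 2.76. Leaving out shControl replicate 2, the library that stood apart, gave 2.93 for SLC5A3, 2.02 for AKR1B1, 1.23 for SLC38A2 and 2.07 for MRPS6, and the same 5 genes were past the threshold, with 497 of all genes. Without shControl replicate 1, NFAT5 was at 0.40 and 2 members were past it, MRPS6 and SLC6A12, with 11 of all genes, against 202 with every library. Without shControl replicate 3, NFAT5 was at 1.03 and SLC6A6 at 0.62, neither past it, and 4 members were past it, all of the former 5 but SLC38A2, with 236 of all genes. Without shPUS1 replicate 1 or 2 there were 3, MRPS6, SLC5A3 and SLC6A12, with 11 and 6 of all genes. Without shPUS1 replicate 3, edgeR called 0 of all genes and 0 members, with 2581 of all genes at an unadjusted p under 0.05.

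**Figure D4:**
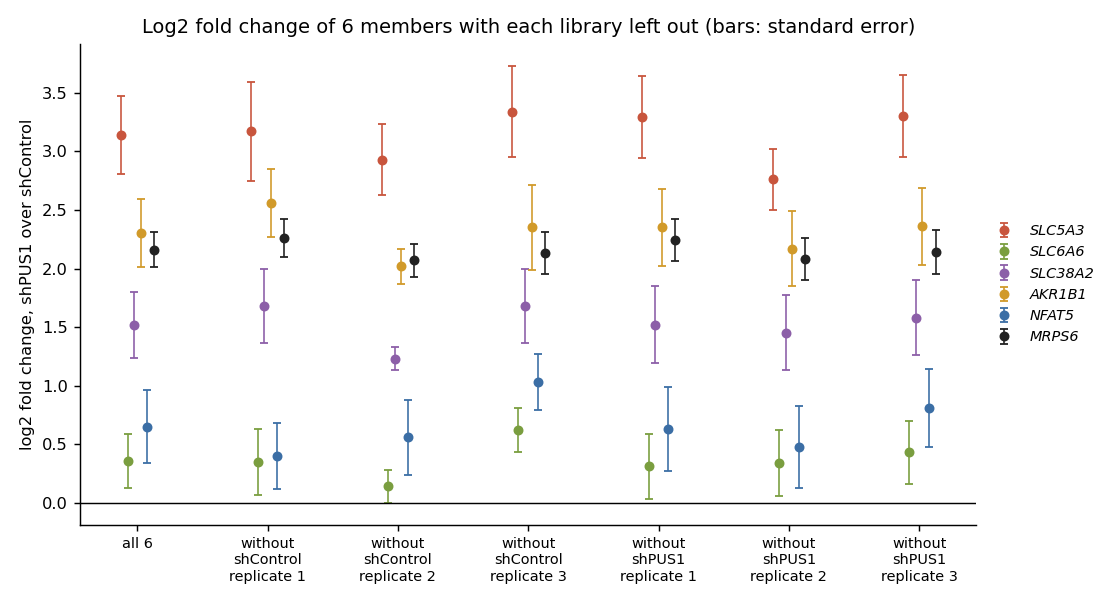
Log2 fold changes of 6 members (SLC6A12, with 0 to 2 counts in the controls, is left out) with all 6 libraries and with each library left out in turn, bars giving the standard error. SLC5A3 stays between 2.76 and 3.34, MRPS6 between 2.07 and 2.26 and AKR1B1 between 2.02 and 2.56, while NFAT5 runs from 0.40 to 1.03 and SLC6A6 from 0.14 to 0.62.

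Among other genes of osmolyte supply, an amino acid transporter rose. The list of 22 further genes for the transport, synthesis or use of osmolytes held 14 with enough counts. Of these, 1 was past the threshold and higher and 0 lower in edgeR's test, against 0.888% and 0.481% of all genes tested. At an unadjusted p under 0.05 there were 7 of the 14, in both directions, against 25.5% of all genes tested. All shPUS1 libraries were above all controls for 5 of the 14, against 18.8%, and below for 3, against 17.3%. The median log2 fold change was 0.25, against -0.03 over all genes tested. It mixes genes that supply osmolytes with genes that use them up, such as SORD. This list and those that follow were chosen with earlier results of these data known, so their counts beside the shares of all genes are a description. The gene past the threshold was SLC38A4, a relative of SLC38A2 that also carries neutral amino acids. It had 43, 90 and 44 counts in the shControl libraries and 150, 206 and 149 in the shPUS1 libraries, which did not overlap, with a log2 fold change of 1.42, a standard error of 0.27 and an adjusted p of 0.0445 in edgeR's test. Leaving out any library but shControl replicate 2 raised its adjusted p to between 0.0612 and 0.252, and without that library it was 0.00213. SORD, sorbitol dehydrogenase, which turns the sorbitol made by AKR1B1 into fructose, was looked at after its values were seen. It had 748, 1411 and 628 counts in shControl and 572, 531 and 520 in shPUS1, with a log2 fold change of -0.86, a standard error of 0.21 and an adjusted p of 0.0674 in edgeR's test, not past the threshold except without shControl replicate 3. Of the genes for making taurine, CDO1 had at most 4 counts in any library and CSAD 18 to 44, at -0.58 on the log2 scale with an adjusted p of 0.369 in edgeR's test. Of those for making betaine, CHDH also had at most 4 counts and ALDH7A1 1404 to 2016, at -0.23 on the log2 scale with an adjusted p of 0.268 in edgeR's test.

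Genes known as NFAT5 targets in other settings, beyond the members, were also listed. Of 14 listed, 7 had enough counts in edgeR and 0 were past the threshold, against 1.37% of all genes tested. With so few genes a count of 0 lies near that share, so nothing is read from it. DESeq2 took in 11 of the 14 and limma 5, also with 0 past it. In edgeR, 3 of the 7 had an unadjusted p under 0.05, against 25.5% of all genes tested. All shPUS1 libraries were above all controls for 4 of the 7, against 18.8%, and below for 1, against 17.3%. The median log2 fold change was 0.53, against -0.03 over all genes tested. VEGFC, a growth factor of lymphatic vessels, had 32.7, 37.0 and 28.8 CPM in shControl and 59.4, 61.9 and 70.6 in shPUS1, with no overlap. Its log2 fold change was 0.96 with a standard error of 0.15 and an adjusted p of 0.0319 in edgeR's test, below the fold set by the threshold. Over the alternatives its adjusted p ran from 1.12e-05 to 0.222, and without shControl replicate 2 it was past the threshold, at 1.05 with an adjusted p of 0.00177. The heat shock protein genes HSPA1A and HSPA1B, which are near copies of each other so that their split of reads is uncertain, had log2 fold changes of 0.57 and 0.53 and adjusted p of 0.17 and 0.164 in edgeR's test. The kidney genes AQP2 and SLC14A2 had 0 counts in every library.

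Genes for proteins that act on NFAT5 formed a further list. All 20 listed genes had enough counts, and 0 were past the threshold in edgeR, against 1.37% of all genes tested. That count lies near the share of all genes, so nothing is read from it. At an unadjusted p under 0.05 there were 5, against 25.5% of all genes tested, and the median log2 fold change was 0.05. AKAP13, an exchange factor that acts upstream of NFAT5 under osmotic stress, had 53.4, 40.9 and 80.2 CPM in shControl and 120.4, 127 and 101 in shPUS1. Its groups did not overlap, and its log2 fold change was 1.00 with a standard error of 0.24 and an adjusted p of 0.0638 in edgeR's test. DESeq2 gave it an adjusted p of 0.00235, edgeR with no filter on low counts 0.00539, and edgeR without shControl replicate 3 0.0449, all past the threshold. HSP90AA1, a chaperone, had an adjusted p of 0.0445 in edgeR's test with a log2 fold change of -0.77 and a standard error of 0.15, short of the fold set, and every shPUS1 library was below every control. Without shControl replicate 1 or any shPUS1 library its adjusted p was 0.0995 to 0.253. FYN, a tyrosine kinase, was at 0.47 with an adjusted p of 0.0922. In all 4 pathway lists, 3 of 44 genes tested had an adjusted p under 0.05 whatever the fold, against 2.58% of all genes tested. All shPUS1 libraries were above all controls for 15 of the 44, against 18.8%, and below for 7, against 17.3%.

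The calcium-controlled relatives of NFAT5 give its family as a comparison. Of the 4, NFATC4 had too few counts, and 0 of the other 3 were past the threshold in edgeR, against 1.37% of all genes tested. DESeq2 took in all 4 and limma 2, also with 0 past it. In edgeR, 1 of the 3 had an unadjusted p under 0.05, against 25.5% of all genes tested. Log2 fold changes were 0.57 for NFATC2, with an adjusted p of 0.11, 0.35 for NFATC3, with 0.221, and 0.12 for NFATC1, with 0.865, all from edgeR's test.

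Other genes for the small subunit of the mitochondrial ribosome were set beside MRPS6 with its log2 fold change of 2.16. The 26 further genes of the subunit had a median log2 fold change of -0.38, against -0.03 over all genes tested, and ran from -0.79 to 0.45. In edgeR, DESeq2 and limma 0 were past the threshold, against 1.37% of all genes tested in edgeR. In edgeR 10 had an unadjusted p under 0.05, against 25.5% of all genes tested. All shPUS1 libraries were below all controls for 7 of them, against 17.3% of all genes tested, and above for 1, MRPS24, against 18.8%. The smallest adjusted p in edgeR's test were those of MRPS18B, at -0.73 on the log2 scale and an adjusted p of 0.0535, of MRPS33, with -0.79 and 0.0627, and of MRPS24, with 0.45 and 0.0803.

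**Figure D5:**
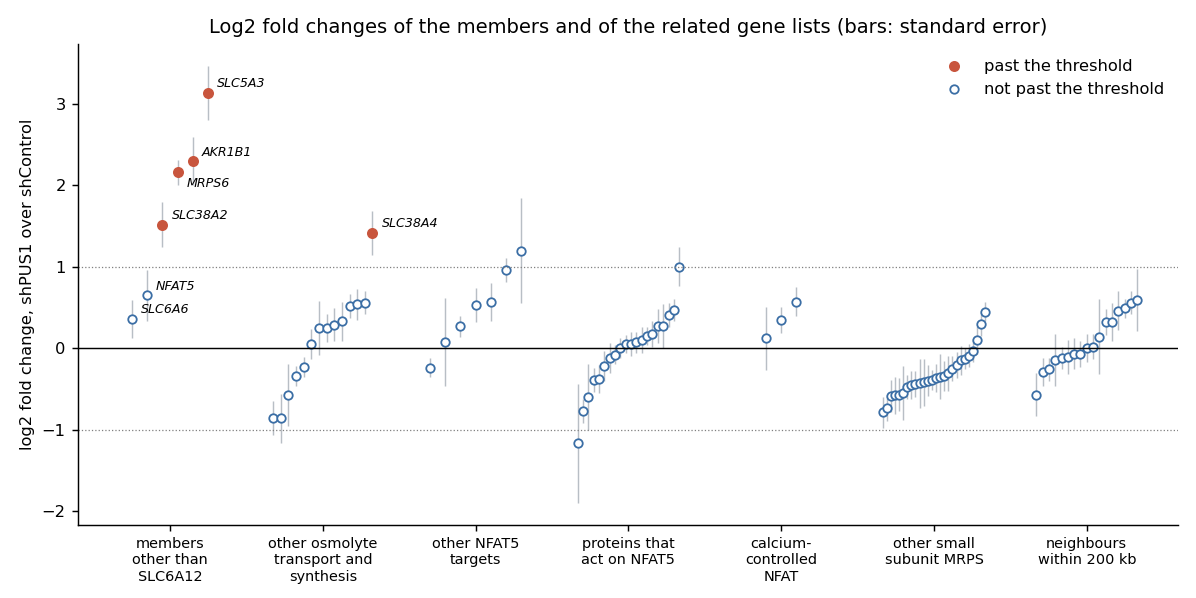
Log2 fold changes (shPUS1 over shControl) with their standard errors for 6 members and for the genes with enough counts in the related lists and within 200 kb of a member, where filled points are past the threshold and dotted lines mark a log2 fold change of 1 in either direction. SLC5A3, AKR1B1, MRPS6 and SLC38A2 lie above the list genes, of which SLC38A4 at 1.42 is the highest, and 0 of the 26 small subunit genes reach 1.

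Genes next to the members were examined to place the differences along the chromosome. Within 200 kb of a member lay 65 further genes, 17 of them with enough counts. Of these 17, 0 were past the threshold in edgeR, against 1.37% of all genes tested. DESeq2 took in 44 of the 65 and limma 16, also with 0 past it. In edgeR 2 of the 17 had an unadjusted p under 0.05, against 25.5% of all genes tested, and the median log2 fold change was 0.00. The smallest adjusted p in edgeR's test belonged to SLC38A1, an amino acid transporter next to SLC38A2, at 0.56 on the log2 scale and an adjusted p of 0.0683. ITSN1, near SLC5A3 and MRPS6, followed with 0.49 and 0.0686, and WWP2, near NFAT5, with -0.57 and 0.222. Within 500 kb, 2 of 51 genes tested were past the threshold, both higher, against 0.888% of all genes tested. They were CALD1 near AKR1B1, at 1.07 on the log2 scale and an adjusted p of 0.0248 in edgeR's test, and SLC38A4 near SLC38A2.

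The genes most like NFAT5 and SLC6A12 across libraries were sought among 13538 named genes by Pearson's r of log2 CPM, as a description over 6 libraries. For NFAT5 these were ANXA9, TRIO, CEP350, BIRC6 and TNRC6B, with r between 0.994 and 0.998 and log2 fold changes of their own of 0.32 to 0.66. The other 6 members had r of 0.626 to 0.739 with NFAT5. For SLC6A12 they included ELK3, NAPG, AFAP1L1 and DDAH1, with r between 0.9971 and 0.9988. Among the members, MRPS6 had 0.999 with SLC6A12, SLC5A3 0.988, AKR1B1 0.983, SLC38A2 0.942, NFAT5 0.649 and SLC6A6 0.620. The libraries form 2 separate sets in SLC6A12, so these values mostly reflect the gap between the groups.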

How the data were processed

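Poly(A) RNA of 3 shControl and 3 shPUS1 libraries of MDA-MB-231 cells was analysed. The authors aligned reads with HISAT2 and counted them with HTSeq 0.6.1, per the submitters' processing notes, and deposited 1 table of estimated counts per gene without normalization and of FPKM made by the authors from these counts, the exonic length and the library total. The genome build, the strandedness and the sharing of reads between overlapping genes are not given in the sources used here, and 29.8% to 31.8% of the counts above 0 were not whole. The listed position of each of the 7 genes overlaps its position in GENCODE release 29 (GRCh38).

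After rounding of the counts to whole numbers, genes were kept by filterByExpr, libraries were scaled by TMM (factors 0.973 to 1.032) and groups were compared with edgeR 4.0.16 (quasi-likelihood test, Benjamini-Hochberg adjustment over 14748 genes, R 4.3.3). The threshold was an adjusted p under 0.05 together with a change of 1 or more on the log2 scale, in either direction. Log2 CPM used a prior count of 2. DESeq2 1.42.0, limma 3.58.1 with log2(FPKM + 1) or log2(FPKM + 0.1) for genes whose mean FPKM was 1 or more, other scalings, no filter, no fold threshold, a replicate block and each library left out were alternatives. The edgeR test was checked on simulated counts with the dispersion of these data. Planted log2 changes of 1.5 and 3.0 were recovered for 186 and 200 of 200 genes. No simulated library stood apart as shControl replicate 2 did, so the check does not cover that case. Promoter windows were those of RefSeq on GRCh38, and motifs were searched on both strands. The p-values measure the spread between these libraries.

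The members, lists and tests were chosen with earlier results of these data known. Named genes were the 7 members, PUS1, in each list and among neighbors those past the threshold or, with none, up to 3 with the smallest adjusted p, and the 5 named genes with the highest r with NFAT5 and with SLC6A12. For SLC6A12, 1 of these is not reported here. Python 3.11.15, numpy 2.4.6, pandas 2.3.3, scipy 1.17.1 and matplotlib 3.10.9 were used. Columns of annotation terms were not used.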

Additional observations from a re-analysis of the deposited data

How the results depend on the processing

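The log2 fold changes of all 7 members kept their sign under every alternative that gave a value. Genes past the threshold numbered 202 and came to 536 with no filter, 18 with the replicate block, 489 with DESeq2, 87 and 112 with limma on log2(FPKM + 1) and log2(FPKM + 0.1), and 380 with no fold threshold, and ran from 0 to 497 with single libraries left out, where edgeR still had 2581 genes at an unadjusted p under 0.05 at the count of 0. Members past it numbered 5 and ran from 0 to 5 with libraries left out. They came to 4 with library totals without TMM and to 3 of 6 with limma on log2(FPKM + 0.1), in both cases without SLC38A2. SLC6A12 had too low a mean FPKM for limma. Pathway list genes past it numbered 1 and came to 2 with no filter and with DESeq2, 0 with the block and with limma on log2(FPKM + 1), where 13 and 16 genes had an unadjusted p under 0.05, and 3 with no fold threshold, and ran from 0 to 2 with libraries left out. Genes near members numbered 0 and came to 2 within 500 kb. For PUS1 the log2 fold change was -1.55 with the replicate block (adjusted p = 0.0969, edgeR), -1.0 and -1.48 with limma on the 2 FPKM scales (0.0544 and 0.0514), and ran from -1.86 to -1.20 with libraries left out (0.00311 to 0.253).

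Libraries with the same replicate number did not deviate together, with residual correlations of -0.0529, -0.0256 and -0.19, and under the block 4 members were past the threshold, without SLC38A2. With 3 libraries a group, differences near the spread of the controls, as for NFAT5 and SLC6A6, could not be resolved, and SLC6A12 rests on 3 counts in the controls. The cause of the changes between settings was not tested.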
